A study of Homo sapiens with 6 samples.

Results

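The inhibitors of cyclin-dependent kinases and the D-type cyclins were followed across 6 arrays of 2 gastric cancer cell lines transfected with the transcription factor MIST1 or with control plasmids. The genes were taken by name, 10 in all: CDKN1A, CDKN1B, CDKN1C, CDKN2A, CDKN2B, CDKN2C, CDKN2D, CCND1, CCND2 and CCND3. The probe annotation used here lists 22 probe sets that read 1 of these genes and no other, out of 41097 single-gene probe sets and 54675 probe sets in all. They cover 9 of the genes, and CDKN2C was not analysed here. Of the 22 probe sets, 18 passed the filter on dim values, which asked for 2 of 6 arrays above the median of all values, and each of the 9 genes kept at least 1 of them.

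D-type cyclins bind CDK4 and CDK6, and the complexes phosphorylate the retinoblastoma protein, which releases E2F transcription factors and lets a cell pass from G1 into S phase. The INK4 inhibitors, encoded by CDKN2A, CDKN2B, CDKN2C and CDKN2D, bind CDK4 and CDK6 and keep the cyclins off them. The Cip/Kip inhibitors, encoded by CDKN1A, CDKN1B and CDKN1C, bind complexes of several cyclins with their kinases, CDK2 complexes above all. In gastric cancer, loss of INK4 and Cip/Kip inhibitors and gain of D-type cyclins have been described many times.

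AGS is a line from a gastric adenocarcinoma and HGC-27 a line from an undifferentiated gastric carcinoma. In each line 1 array was made from cells given 3 µg of MIST1 plasmid and 1.5 µg of a GFP plasmid, 1 from cells given 3 µg of empty vector and 1.5 µg of the GFP plasmid, called the GFP control, and 1 from untransfected parental cells. Both transfected populations were nucleofected, sorted on GFP fluorescence 24 h later and grown for 24 h more, so transfection and sorting together separate them from parental cells. Each condition thus has 1 array per line, there are no replicates within a line, and the lines are the 2 replicates of a comparison of conditions. MIST1 is encoded by BHLHA15 and marks mature secretory cells such as the zymogenic cells of the stomach; the series asked which genes its transient expression raises. The labels name neither the species nor the promoter of the MIST1 construct.

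Values are the deposited probe set intensities, a linear measure of brightness with no unit, whose array medians lay between 49.12 and 51.96. Arrays of 1 line correlated at r = 0.971 to 0.996 over the genes tested and arrays of different lines at 0.69 to 0.72. Of 5 epithelial markers, KRT8, KRT18, KRT19, EPCAM and CDH1, all passed the filter, with summed intensities of 39088 to 46067 in AGS and 1448 to 1690 in HGC-27, where KRT19 read 9.2 or less, EPCAM 34.4 or less and KRT18 35.8 or less. KRT8 still read 1349.5 to 1562 in HGC-27. Of 4 mesenchymal markers, HGC-27 carried vimentin at 12532 to 13731, against 250.2 to 298 in AGS, and ZEB1 and FN1 were also higher there. CDH2 overlapped between the lines, at 47 to 57.5 in AGS and 44.4 to 57.6 in HGC-27. The 4 fibroblast markers COL1A1, COL1A2, DCN and PDGFRB summed to 785 to 1451 in AGS and 9533 to 10711 in HGC-27. Of 4 listed leukocyte markers CD3E alone passed the filter, and of 4 endothelial markers PECAM1 alone, at intensities up to 66.7 and 101. The parental arrays stood apart in their controls. Of the 9 probe sets for bacterial RNA added to every hybridization, 8 in AGS and 9 in HGC-27 stood higher on the GFP control array than on the parental one, with a median log2 difference of 0.19 for AGS and 0.16 for HGC-27. The nuclear RNA MALAT1 read 390 in the GFP control against 3685 in parental cells in AGS and 324 against 1566 in HGC-27. A probe set for the middle of 18S ribosomal RNA likewise read 48.2 against 1142 in AGS and 52 against 371 in HGC-27. The part of these differences in the results below was not tested. For BHLHA15 itself, AGS cells read 72.5 with MIST1 against 75.9 in the GFP control, and HGC-27 cells 58.7 against 61.9. The labels do not say whether it reads the construct, so it does not check them.

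CDKN2D and CDKN2B, both INK4 inhibitors, and CDKN1A were higher in all 4 transfected arrays than in the parental array of their line, by 2.38-fold or more for CDKN2D, by 1.78-fold or more for CDKN2B and by 1.65-fold or more for CDKN1A. CDKN2D encodes p19INK4D. It read 337 with MIST1 and 347 in the GFP control, against 134 in parental cells, in AGS, and 285 and 339 against 120 in HGC-27. The transfected arrays of both lines lay between 285 and 347 and the parental arrays between 120 and 134. The share of all genes that split this way across lines was not counted. CDKN2D rose by 1.44 on the log2 scale in the GFP control (SE 0.15, n = 2 lines, limma adjusted p = 0.0458) and by 1.29 with MIST1 (SE 0.15, adjusted p = 0.0385). limma fits a linear model to every gene, here with the cell line as a block, and the threshold was an adjusted p of 0.05. Both changes are set against the same parental arrays, and a large change in part of the cells and a smaller one in every cell cannot be told apart in these bulk samples. A second CDKN2D probe set read 4.05 or less on every array and gives no measurement.

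CDKN2B encodes p15INK4B, an inhibitor known as a target of TGF-beta signalling. Its brighter probe set read 850 with MIST1 and 976 in the GFP control, against 479 in parental cells, in AGS. In HGC-27 it read 255 and 345 against 70.5. The difference over parental cells was thus 1.66 on the log2 scale in the GFP control (SE 0.30) and 1.34 with MIST1 (SE 0.30), in size close to that of CDKN2D. Neither passed the test, with limma adjusted p = 0.0617 and 0.0624. The lines differed in the size of the step, which was 2.04-fold in AGS and 4.90-fold in HGC-27 for the GFP control over parental cells. The second CDKN2B probe set read 239 and 259 against 119 in AGS and 82.9 and 111 against 7.66 in HGC-27. That parental value lay under the floor of 17.6 to which low values were raised, so the HGC-27 folds of this probe set, 4.71 with MIST1 and 6.33 in the GFP control, are lower bounds.

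CDKN1A encodes p21, the Cip/Kip inhibitor that p53 induces. It read 6455 with MIST1 and 6357 in the GFP control, against 3859 in parental cells, in AGS, and 270 and 285 against 159 in HGC-27. The steps over parental cells were nearly equal in the lines, 1.65-fold in AGS and 1.79-fold in HGC-27 for the GFP control, although the levels differed by more than an order of magnitude. CDKN1A rose by 0.75 on the log2 scale with MIST1 over parental cells (SE 0.10, limma adjusted p = 0.0385). In the GFP control it was higher by 0.78 (SE 0.10) at an adjusted p of 0.0528, just short of the threshold.

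The GFP control differed from parental cells past the test in 0.247% of the 13738 genes tested, and in 1 of the 9 genes, CDKN2D. With MIST1 over parental cells 3.3% of genes passed, and 2 of the 9, CDKN2D and CDKN1A, both higher. All 4 transfected arrays stood 1.5-fold or more above the parental array of their line in 2.19% of genes and in 3 of the 9, CDKN2D, CDKN2B and CDKN1A, and as far below it in 1.05% of genes and 0 of the 9. For the GFP control the median of the 9 genes was 0.48 on the log2 scale, against 0.07 over all genes tested. That median is the value of CDKN1C, whose probe sets disagree, and it was 0.29 without CDKN1C and 0.17 with the mean of all probe sets. The calls rest on thin margins. CDKN2D in the GFP control missed the threshold with no floor (limma adjusted p = 0.0579), a floor at the median of all values (0.0703), no filter (0.189), the mean of all probe sets (0.0742) and no block for cell line (1), while its log2 difference was 1.35 to 1.52 under every alternative run. CDKN1A with MIST1 over parental cells missed it under the same changes of floor, filter and block (adjusted p = 0.0502, 0.0554, 0.146 and 1) and without the AGS MIST1 array (0.118), and CDKN2D missed it in that comparison with the floor at the median (0.0554), no filter (0.146) and no block (1).

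**Figure D1:**
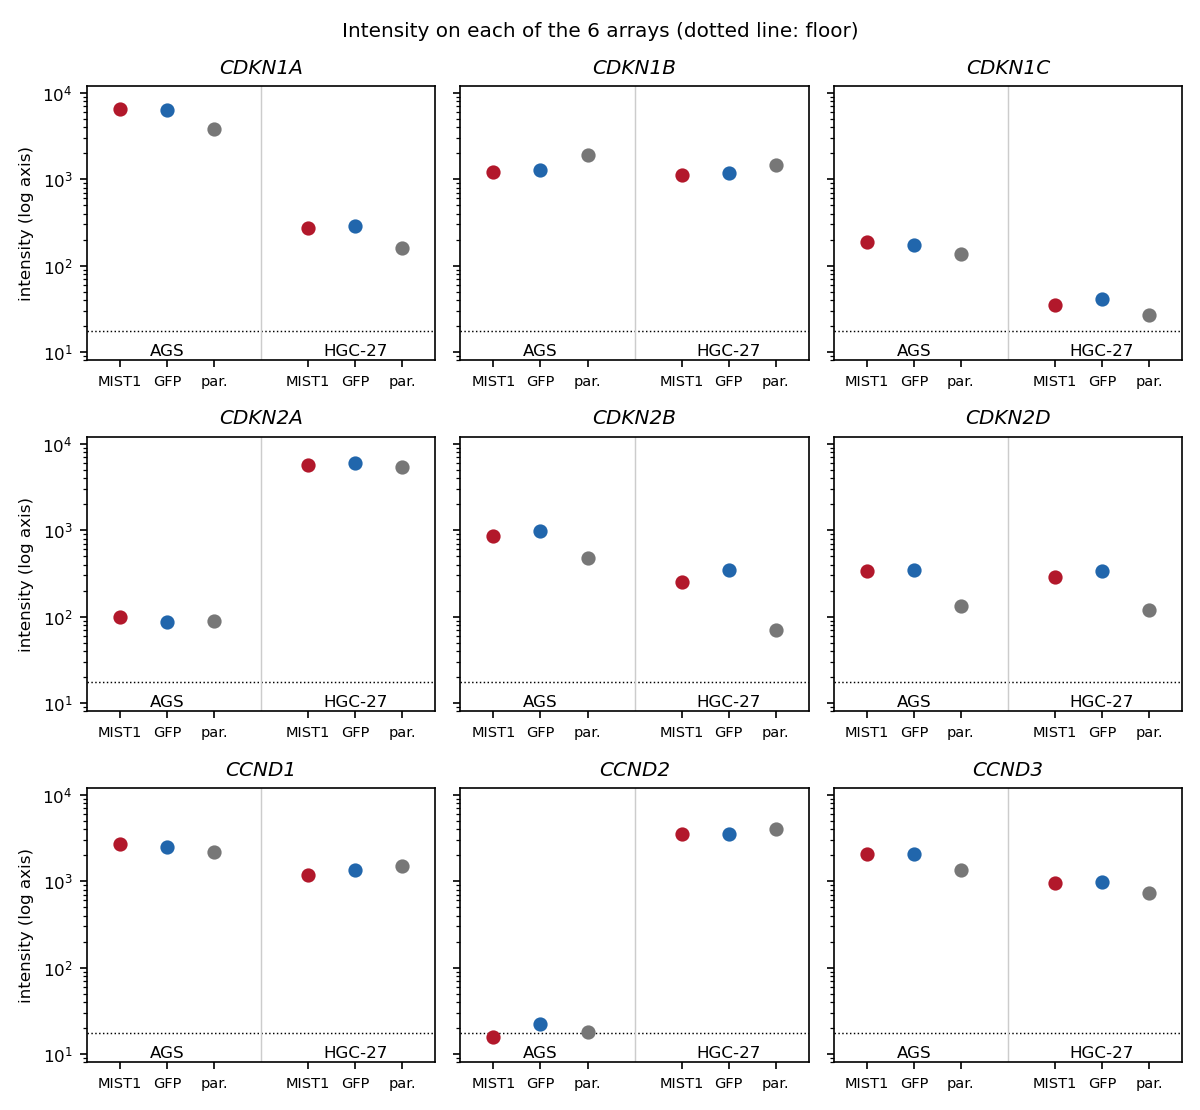
Intensity of the brightest probe set of each gene on each array, on a log axis. In each panel the arrays run MIST1, GFP control (GFP) and parental (par.), AGS left and HGC-27 right, and the dotted line is the floor of 17.6. CDKN2D, CDKN2B and CDKN1A lie lowest in the parental array of each line and CDKN1B highest there.

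CDKN1B, which encodes p27, ran the other way. It read 1210 with MIST1 and 1291 in the GFP control, against 1922 in parental cells, in AGS, and 1111 and 1167 against 1474 in HGC-27. All 4 transfected arrays lay below both parental arrays, a split whose share over all genes was not counted. The log2 difference over parental cells was -0.46 in the GFP control (SE 0.11, limma adjusted p = 0.0934) and -0.54 with MIST1 (SE 0.11, adjusted p = 0.0568), short of the threshold. With quantile normalization CDKN1B passed in limma with MIST1 over parental cells (log2 difference -0.55, adjusted p = 0.0381). In some fits that left an array out it passed over parental cells both with MIST1 and in the GFP control. Over all alternatives run its log2 difference was -0.58 to -0.33 in the GFP control and -0.66 to -0.41 with MIST1. On each transfected array at least 8 of the 9 bacterial controls were higher, MALAT1 and the 18S probe set were lower, and their part in this was not tested.

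CDKN1C, which encodes p57 and is expressed from the maternal allele, gave no single answer, because its probe sets disagreed. The brightest of its 5 probe sets read 188 with MIST1 and 173 in the GFP control against 136 in parental cells in AGS. Another read 119 and 110 against 165 in the same RNA. In HGC-27 the first read 34.7 and 40.6 against 26.6 and the second 14.3 and 24.2 against 43. Besides the brightest, 3 probe sets were kept, with names ending in _x_at, which marks probes that can bind other transcripts. In both lines all 3 read lower on the GFP control array than on the parental one, with log2 differences over both lines of -0.31 to -0.71. Averaging the 4 kept probe sets turned the log2 difference of the GFP control over parental cells to -0.27, against 0.48 (SE 0.20, limma adjusted p = 0.212) by the brightest alone. The fifth probe set did not pass the filter. No direction is given for CDKN1C.

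**Figure D2:**
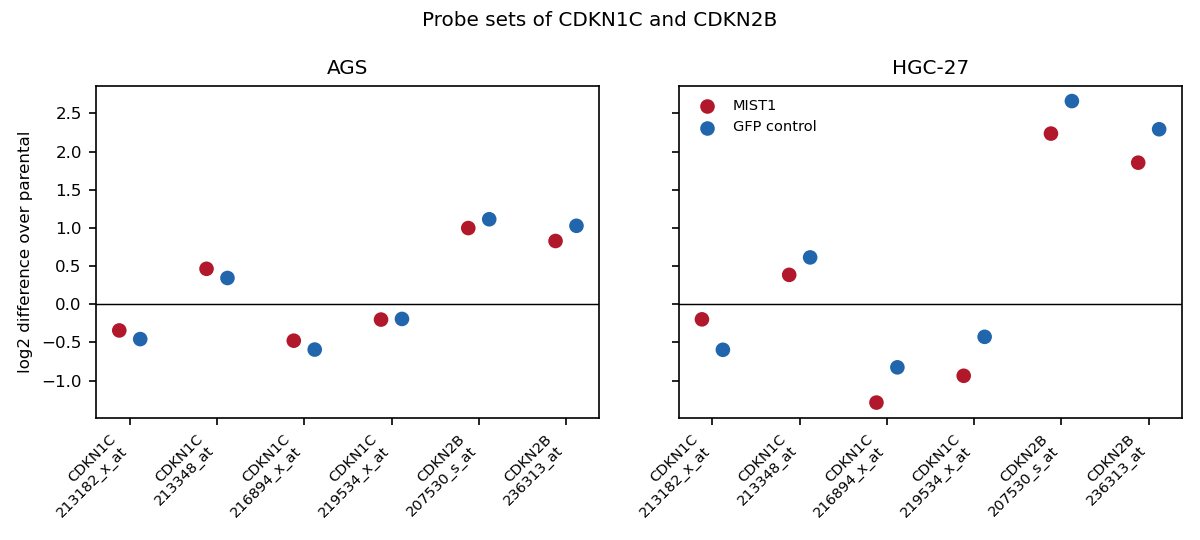
Log2 difference over the parental array for each kept probe set of CDKN1C and CDKN2B, AGS in the left panel and HGC-27 in the right, with MIST1 in red and the GFP control in blue. The 2 CDKN2B probe sets lie above 0 in both lines, while 1 CDKN1C probe set lies above 0 and 3 lie below it.

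The annotated promoters of the 3 inhibitors that stood higher after transfection are shown because these genes moved together. They are the 250 bases before the transcription start in RefSeq's annotation of GRCh38.p14, 5′ to 3′ on the gene's strand, with the GC box GGGCGG, the letters that Sp1-type factors bind, in capitals on either strand (CCGCCC on the other). The window of CDKN2D is chr19:10568980-10569229 (minus strand), that of CDKN2B chr9:22009306-22009555 (minus strand) and that of CDKN1A chr6:36678464-36678713 (plus strand), which lies inside the annotated gene, whose first base is further upstream.
CDKN2D: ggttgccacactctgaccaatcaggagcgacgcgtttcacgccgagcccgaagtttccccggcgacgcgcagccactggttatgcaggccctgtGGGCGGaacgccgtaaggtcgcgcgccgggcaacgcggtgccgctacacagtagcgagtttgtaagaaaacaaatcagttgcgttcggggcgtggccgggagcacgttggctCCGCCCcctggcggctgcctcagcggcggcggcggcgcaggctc
CDKN2B: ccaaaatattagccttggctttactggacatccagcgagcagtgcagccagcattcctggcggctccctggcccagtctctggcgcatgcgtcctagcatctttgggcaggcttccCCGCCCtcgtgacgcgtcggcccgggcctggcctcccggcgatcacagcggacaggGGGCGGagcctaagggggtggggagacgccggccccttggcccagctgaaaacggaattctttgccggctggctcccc
CDKN1A: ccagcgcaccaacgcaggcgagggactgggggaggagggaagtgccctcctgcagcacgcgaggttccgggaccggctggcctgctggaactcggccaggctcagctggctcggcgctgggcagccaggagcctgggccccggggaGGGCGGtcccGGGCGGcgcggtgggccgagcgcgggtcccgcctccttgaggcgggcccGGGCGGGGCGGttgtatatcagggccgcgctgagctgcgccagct
CDKN2D and CDKN2B hold 2 GC boxes each and CDKN1A 4, of which 2 overlap by 1 base. Of 35114 annotated promoters, 42.6% hold at least 1, so its presence is common. The E-box CATATG, which MIST1 is known to bind and which reads the same on both strands, was in 0 of the 12 annotated promoters of the 7 member genes that the table lists, against 2.63% of all promoters. A match or its lack describes these windows alone.

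No D-type cyclin passed a limma test between conditions with every array in the fit. CCND3 and CCND1 did pass over parental cells in some fits that left an array out. Over all alternatives run, the log2 difference of CCND3 was 0.41 to 0.60 in the GFP control and 0.41 to 0.59 with MIST1. CCND3 read higher, at 2055 with MIST1 and 2053 in the GFP control against 1359 in parental cells in AGS, and 967 and 975 against 732 in HGC-27. The transfected arrays of each line lay above its parental array, and the share of all genes that did so was not counted. The log2 difference was 0.50 in both comparisons (SE 0.11), with limma adjusted p = 0.0771 for the GFP control and 0.0595 for MIST1, and did not pass. A second CCND3 probe set was dim, at 35.3 or less, and was left out by the filter.

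CCND1 read higher in the transfected arrays of AGS and lower in those of HGC-27 by its brighter probe set. It read 2710 with MIST1 and 2520 in the GFP control against 2181 in parental cells in AGS, and 1196 and 1353 against 1504 in HGC-27. Its other probe set gave 2722 and 2619 against 2252 in AGS and 1009 and 1210 against 1135 in HGC-27, where the GFP control thus lay above the parental array and not below it. Over both lines the log2 difference of the GFP control from parental cells was 0.03 (SE 0.15, limma adjusted p = 0.931).

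CCND2 was measured in HGC-27, at 3543 with MIST1 and 3569 in the GFP control against 4007 in parental cells by its brightest probe set. In AGS the same probe set read 15.9, 22.3 and 17.8, at or near the floor. The 4 CCND2 probe sets did not give 1 direction in HGC-27, where one read 1237 and 1328 against 1029 and another 885 and 994 against 1107. The dimmest there had the largest change, at 333 with MIST1 and 405 in the GFP control against 218 in parental cells. CDKN2A, which encodes p16INK4A and, from another reading frame, p14ARF, read 5698 with MIST1 and 5926 in the GFP control against 5412 in parental cells in HGC-27. It read 99.4 and 86.2 against 88.1 in AGS, and its log2 difference over parental cells was 0.05 in the GFP control (SE 0.13, limma adjusted p = 0.840) and 0.12 with MIST1 (SE 0.13, adjusted p = 0.564).

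**Figure D3:**
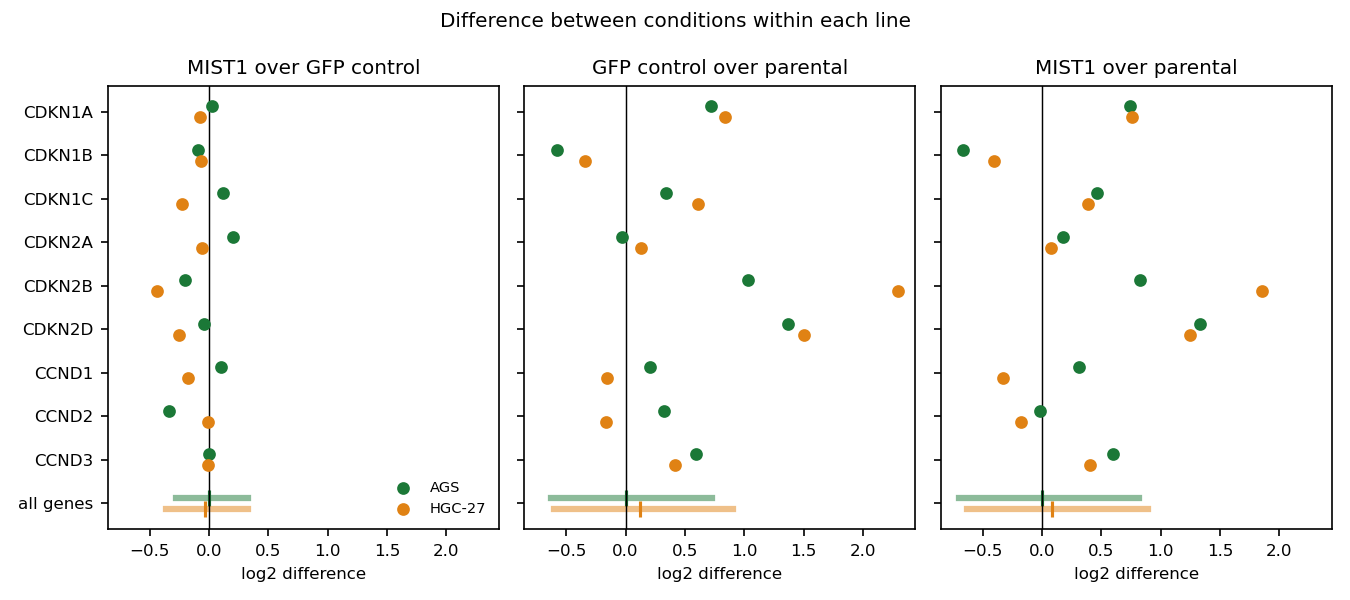
Log2 difference of each gene between conditions within AGS (green) and HGC-27 (orange), with MIST1 over GFP control, GFP control over parental and MIST1 over parental from left to right. The bars at the bottom span the 5th to 95th percentile of all genes tested, with a tick at the median. In the middle panel CDKN2D and CDKN2B lie beyond the bar of their line, while CDKN2B in HGC-27 lies beyond it in the left panel. The AGS point of CCND2 there rests on values near the floor and has no order.

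With MIST1 against the GFP control, which share transfection and sorting, the 9 genes differed little. Their log2 differences ran from -0.32 for CDKN2B to 0.07 for CDKN2A, with a median of -0.05 (the value of CDKN1C; -0.06 without it), against -0.02 over all genes tested. Lower in both lines with MIST1 were 4 of the 9, CDKN1B, CDKN2B, CDKN2D and CCND2, where 32.6% of all genes were, and 0 were higher in both, where 24.3% were. The direction of CCND2 in AGS rests on values near the floor, which have no order. In limma 0 of the 9 passed, 0 at an unadjusted p under 0.05, where 0% of all genes passed and 1.32% had such a p. CDKN1A read 6455 with MIST1 against 6357 in the GFP control of AGS, and 270 against 285 in HGC-27, a log2 difference of -0.03 (SE 0.10, limma adjusted p = 1). CDKN2D differed by -0.15 (SE 0.15), at 337 against 347 in AGS, and 285 against 339 in HGC-27.

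Over both lines CDKN2B had the largest of these differences, at 0.87-fold in AGS and 0.74-fold in HGC-27, lower with MIST1 by both of its probe sets in both lines. Without the HGC-27 GFP control array its log2 difference was 0.06, against -0.32. AGS alone then sets MIST1 directly against the GFP control, at -0.20. The fitted value also takes in the log2 steps of MIST1 over parental cells, 0.83 in AGS and 1.85 in HGC-27. The fit of all 6 arrays shares its spread with the parental arrays, which gave CDKN2B a SE of 0.30. In a limma fit of the 4 MIST1 and GFP control arrays the SE was 0.08, and 0 of the 9 genes passed, where 0.437% of all genes did (CDKN2B at an adjusted p of 0.154). CDKN2B was there the 1 gene of the 9 with an unadjusted p under 0.05, at 0.00312, where 12.7% of all genes had one. At 1.5-fold or more in a single line, 0 of the 9 genes were higher or lower with MIST1, where 1.11% of all genes were higher and 0.721% lower in AGS and 1.3% and 1.14% in HGC-27. RAB3D, a secretory vesicle GTPase that stood higher on the MIST1 arrays, read 1308 against 540 in AGS and 1783 against 504 in HGC-27. Whether the difference between MIST1 and the GFP control varies with the line cannot be tested, since each line has 1 array of each.

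The lines themselves differed in most of these genes. In limma, AGS against HGC-27 gave 60.4% of all genes past the test and 7 of the 9. Higher in AGS were 5 of the 9, CDKN1A, CDKN1C, CDKN2B, CCND1 and CCND3, as were 33.2% of all genes, and lower were 2, CDKN2A and CCND2, as were 27.3%. Beside that background a count of 7 is not particular to these genes. By the probe set used, CDKN1C passed the filter through AGS alone and CCND2 through HGC-27 alone, so these 2 had to differ between the lines. This comparison treats the 3 arrays of a line as its replicates although their conditions differ, so its p-values do not measure the spread between like cultures.

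CDKN1A was 23.5-fold higher in AGS, at 3859 to 6455 against 159 to 285 in HGC-27, a log2 difference of 4.55 (SE 0.09, limma adjusted p = 3.05e-07). CDKN1C was 4.90-fold higher, with log2 differences of 2.29 to 2.42 by its 4 kept probe sets, although these disagree on transfection. Its HGC-27 values were dim and the size depends on the floor, the log2 difference being 1.70 with the floor at the median. CDKN1B spanned 1210 to 1922 in AGS, against 1111 to 1474 in HGC-27, and these ranges overlap (log2 difference 0.22, SE 0.09, adjusted p = 0.0794).

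Neighbouring INK4 genes on chromosome 9 went opposite ways between the lines. CDKN2A (chr9:21967752-21995324, GRCh38.p14) read 86.2 to 99.4 in AGS against 5412 to 5926 in HGC-27, a log2 difference of -5.96 (SE 0.10, limma adjusted p = 3.02e-07). A second CDKN2A probe set read 19.9 to 26.2 in AGS against 782 to 1022 in HGC-27, and the last one was dim throughout. CDKN2B (chr9:22002903-22009313) was 4.0-fold higher in AGS, with 479 to 976 against 70.5 to 345 (adjusted p = 0.000423). The INK4 gene CDKN2D on chromosome 19 overlapped in level, with 134 to 347 in AGS and 120 to 339 in HGC-27 (log2 difference 0.14, SE 0.12, adjusted p = 0.344).

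Among the D-type cyclins, CCND2 lay at 15.9 to 22.3 in AGS and at 3543 to 4007 in HGC-27. Its log2 difference of -7.60 (SE 0.14, limma adjusted p = 3.05e-07) rests on AGS values at or near the floor, so its size is not fixed. It was -6.19 with the floor at the median and -5.38 with the mean of all probe sets. Another of its probe sets gave a smaller gap, 64.7 to 71.9 in AGS against 218 to 405 in HGC-27. CCND1 was 1.83-fold and CCND3 2.03-fold higher in AGS (adjusted p = 0.00101 and 8.27e-05), with the 3 arrays of AGS above the 3 of HGC-27 in both. Such a complete split upward occurred in 34.2% of all genes.

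**Figure D4:**
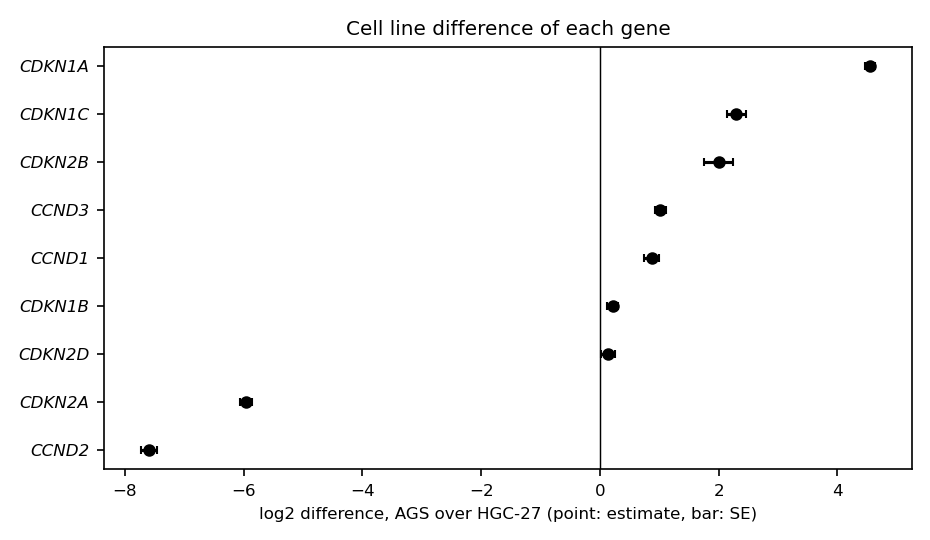
Log2 difference of AGS over HGC-27 for each gene by limma on all 6 arrays, with the SE as a bar (3 conditions per line). CDKN1A is the highest at 4.55, CDKN2A and CCND2 lie at -5.96 and -7.60, and CDKN1B and CDKN2D lie near 0.

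Whether the response to transfection differed between the lines was tested as an interaction, with the GFP control and MIST1 arrays of a line as its 2 transfected arrays. In limma 10.1% of all genes passed and 0 of the 9, with 2 of the 9, CDKN2B and CCND1, at an unadjusted p under 0.05 where 31.5% of all genes were. Without any 1 of the 4 transfected arrays, 0 genes passed. CDKN2B stood at the threshold, with a log2 response smaller in AGS than in HGC-27, the difference being -1.15 (SE 0.27, adjusted p = 0.0508). It passed with no floor (0.0369), with the mean of both probe sets (0.0400) and with each probe set tested on its own (0.0499 and 0.0378). It missed the threshold with a floor at the median of all values (0.104), without a filter (0.215), with quantile normalization (0.0628) or without any 1 transfected array (up to 0.283). CCND1 had an interaction of 0.50 by its brighter probe set (SE 0.13, adjusted p = 0.064). Its other probe set, tested on its own, gave 0.28 (SE 0.16, adjusted p = 0.263). The interaction of CDKN2D was -0.02 (SE 0.20, adjusted p = 0.945) and that of CDKN1A -0.07 (SE 0.11, adjusted p = 0.699).

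The partners and regulators of these genes mostly did not pass the tests between conditions. In the test of the response between the lines, some of them passed. The response was lower in AGS for FBXW7 (log2 difference -1.06), ETS2 (-0.94), GADD45A (-0.85), FBXO31 (-0.85) and EZH2 (-0.52). It was higher in AGS for TRIB3 (0.67). For FBXW7, ETS2, GADD45A and EZH2 the transfected arrays lay below the parental one in AGS and above it in HGC-27. Those of FBXO31 lay on either side of it in AGS and above it in HGC-27. Those of TRIB3 lay above it in AGS and below it in HGC-27. By list, the calls were 2 of 10 genes for turnover of p27 and D-type cyclins and 1 of 10 regulators of p21. They were 2 of 6 regulators of the CDKN2A and CDKN1C loci and 1 of 9 other CDK regulators. Of 9 G1 kinases and E cyclins, 13 RB and E2F genes and 10 proliferation markers 0 passed. Of all genes 10.1% passed that test. Of 9 tested G1 kinases and E cyclins 0 passed with MIST1 over the GFP control and 0 for the GFP control over parental cells, where CDK7, a subunit of the CDK-activating kinase, was at 0.19 (SE 0.11). Of 13 RB and E2F genes 0 passed in either comparison. E2F1, which drives S-phase genes, was at 0.50 in the GFP control (SE 0.15, limma adjusted p = 0.122), and RBL2, which encodes the p130 pocket protein, was at -0.50 (SE 0.13, adjusted p = 0.0996). Of 10 genes for turnover of p27 and D-type cyclins 0 passed in either comparison. Among them SKP2, the F-box protein that targets p27, was at -0.30 in the GFP control (SE 0.09, adjusted p = 0.133), and FBXO4, an F-box protein linked to cyclin D1, at -0.39 with MIST1 over the GFP control (SE 0.15, adjusted p = 1).

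Of 10 tested genes of p53, its targets and other regulators of p21, 0 passed for MIST1 over the GFP control and for the GFP control over parental cells, and TP53I3 rose with MIST1 over parental cells by 0.62 (SE 0.11, limma adjusted p = 0.0461). That call was lost with no floor (0.0589), the floor at the median (0.0588), no filter (0.168), the mean of all probe sets (0.0613), no block (1) and without either MIST1 array (0.149 and 0.159). TP53I3, a p53 target, read 1500 with MIST1 and 1457 in the GFP control against 1028 in parental cells in AGS, and 1174 and 1236 against 722 in HGC-27. MDM2, the p53 ligase and itself a p53 target, was lower in each transfected array. It read 1851 and 2016 against 2567 in AGS, and 427 and 430 against 466 in HGC-27. FAS, of the same list, was higher in each, at 793 and 804 against 645.5 in AGS, and 953 and 915 against 595 in HGC-27. The share of all genes with the same direction in every transfected array was not counted. The log2 difference of FAS in the GFP control over parental cells was 0.47 (SE 0.14, limma adjusted p = 0.124). In that comparison 6 of the 10 genes had a log2 difference above 0 and 4 had one below it. Between the lines 6 of the 10 passed, where 60.4% of all genes did, and all 6 were higher in AGS, where 33.2% of all genes were, with SESN1 at 2.43, KLF4 at 2.39, MDM2 at 2.27, PLK3 at 2.14, KLF6 at 1.88 and TP53I3 at 0.37 on the log2 scale. The median of the 10 was 1.18, against 0.06 over all genes.

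Of 6 tested regulators of the CDKN2A and CDKN1C loci 0 passed in the comparisons of conditions. KCNQ1OT1, the imprinted antisense RNA of the domain that holds CDKN1C, was at -0.95 in the GFP control over parental cells (SE 0.21, limma adjusted p = 0.0812). It read 61.8 with MIST1 and 57.8 in the GFP control against 96.3 in parental cells in AGS, and 80 and 53.4 against 120 in HGC-27. MALAT1, also a nuclear RNA, was lower in the same arrays, and its part in this was not tested. Of 10 proliferation markers 0 passed for the GFP control over parental cells, with 5 higher and 5 lower and a median of 0.01. CCNB1, the mitotic cyclin B1, was at -0.36 (SE 0.08, adjusted p = 0.0800) and MKI67 at -0.42 (SE 0.17, adjusted p = 0.212). With MIST1 over the GFP control 0 of the 10 passed, MKI67 was at 0.18 (SE 0.17), and the median was 0.07.

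Between the lines 6 of the 9 G1 kinases and E cyclins passed, 3 higher and 3 lower in AGS, where 60.4% of all genes passed. CDK6 read 3907 to 4375 in AGS against 466 to 612 in HGC-27, a log2 difference of 2.97 (SE 0.11, limma adjusted p = 1.98e-06). CCNE1, which encodes cyclin E1, was higher in AGS by 2.39 (SE 0.10), and CCNE2, which encodes cyclin E2, by 0.59 (SE 0.12). CCNH, a partner of CDK7, was lower in AGS at -1.06 (SE 0.09), as were CDK2 at -0.51 (SE 0.08) and CDK4 at -0.20 (SE 0.07, limma adjusted p = 0.0484). SKP2, one of the turnover genes, was lower in AGS at -1.45 (SE 0.08), with 931 to 1211 against 2622 to 3149. Of the other CDK regulators 5 of 9 passed, where 60.4% of all genes did, and all 5 were higher in AGS, where 33.2% of all genes were. Among them were CCNG2 at 1.43 and CDKN3, a phosphatase of CDKs, at 1.11.

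The genes most like CDKN2D and CDKN2B were ranked by Pearson correlation over the 6 log2 values centred within each line, among 1500 other genes whose centred values ranged over at least 1. The 6 points share the 2 parental arrays, below which no transfected value of either gene lay. For CDKN2D they were MAPRE3, which encodes a microtubule end-binding protein, OR14J1, an olfactory receptor gene, and ADGRG1, an adhesion receptor, each at r = 0.998. ADGRG1 read 1365 with MIST1 and 1333 in the GFP control against 717 in parental cells in AGS, and 70 and 82.5 against 40.2 in HGC-27. For CDKN2B they were YPEL5, FGF14 and the deubiquitinase USP11, at r = 0.995 to 0.997, and YPEL5 read 1342 and 1368 against 897 in AGS and 197 and 232 against 93.4 in HGC-27. MAPRE3, OR14J1 and FGF14 were dim. On the parental arrays of AGS and HGC-27 MAPRE3 read 50.2 and 35.6, OR14J1 40.7 and 41.1, and FGF14 46.5 and 30.4. All lay under the filter value of 50.53, so these genes passed the filter through transfected arrays alone. Their likeness to CDKN2D or CDKN2B was thus partly set by the filter. No other member ranged widely enough to be ranked.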

How the data were processed

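The samples were 6 one-colour Affymetrix arrays from 5 µg of total RNA each. The authors deposited 1 intensity per probe set and array. The series design text names dChip; the background correction and scaling behind the deposited intensity values are not given in the sources used here. Array medians differed by 0.08 on the log2 scale over all probe sets, and no scaling was added. Over the genes tested they ran from 8.22 to 8.51, and quantile normalization was run as an alternative. Values were raised to a floor at the 25th percentile (17.6) and taken to log2, and a probe set needed 2 of 6 arrays above the median of all values (50.53) to be tested, which 25948 met. Genes came from the platform annotation, with symbols updated by gene ID, and 6 control probe sets were left out. The probe set with the highest mean stood for a gene, giving 13738 genes. Conditions and lines were compared by limma 3.58.1 under R 4.3.3, two-sided, with a moderated variance that follows mean intensity and with all 6 arrays in the fit, with Benjamini-Hochberg adjustment over all genes and a threshold of 0.05. Cell line was a block, since the labels give the 3 arrays of each line; 2 residual degrees of freedom remained. No label says that the lines' arrays are repeated cultures, so p-values measure the spread between single arrays. The fits were tested on simulated data. Alternatives changed the floor, filter, normalization, probe set rule, arrays in the fit and block. The number of arrays, not a depth, limits the precision. The members and gene lists were chosen with earlier results of these data known. All members are named. From each list come genes that passed a comparison, though not all that passed between the lines, or otherwise examples from the 3 with the largest difference. MDM2, RAB3D, BHLHA15 and MALAT1 were added after their values were seen. Genes most like a member were the 3 with the highest correlation.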

Additional observations from a re-analysis of the deposited data

Results flagged for a closer look

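CCND1, the cyclin D1 gene, differed in opposite directions in the lines with MIST1 over parental cells by its brighter probe set. The log2 difference was 0.31 in AGS and -0.33 in HGC-27, a gap of 0.64. Its other probe set gave 0.27 in AGS and a smaller fall of -0.17 in HGC-27. The gap in this comparison was not tested, since each line has 1 array per condition. The interaction over both transfected arrays of a line, 0.50 (SE 0.13) by the brighter probe set, had a limma adjusted p of 0.064. By the other probe set it was 0.28 (SE 0.16, limma adjusted p = 0.263).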

How the results depend on the processing

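Between conditions the counts depended on the processing, and the differences of CDKN2D, CDKN2B, CDKN1A, CCND3 and CDKN1B over parental cells kept their sign under every alternative run. For the GFP control over parental cells, 0 genes and 0 of the 9 passed in limma under each of 4 settings: no floor, a floor at the median of all values, no filter and no replicate block. Also, with quantile normalization 75 genes and 2 of the 9, with the mean of all probe sets 1 gene and 0 of the 9, by probe set 171 probe sets and 2 of the 9, and from the 4 arrays of the conditions compared 911 genes and 3 of the 9 (CDKN2D, CDKN2B and CDKN1A). For MIST1 over parental cells the counts were 65 genes and 1 of the 9 with no floor, 0 and 0 for the higher floor, no filter and no replicate block, 75 genes with the mean of all probe sets, 807 probe sets and 827 genes from 4 arrays. For MIST1 over the GFP control 60 genes passed from 4 arrays. AGS over HGC-27 gave 15520 probe sets. The difference in response between lines gave 116 genes for the higher floor, 642 without a filter and 2754 probe sets, and 1 of the 9 (CDKN2B) with no floor, with the mean of all probe sets and by probe set.

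Leaving out 1 array at a time gave 1 to 58 genes for MIST1 over the GFP control, 64 to 5362 genes and 1 to 6 of the 9 for the GFP control over parental cells, and 453 to 5398 genes and 2 to 6 of the 9 for MIST1 over parental cells. For the GFP control over parental cells the count was lowest without the HGC-27 GFP control array. The highest counts over parental cells came without the AGS parental array, when the spread is read from the MIST1 and GFP control arrays alone. For the response 0 genes passed whichever of the 4 transfected arrays was left out, and parental arrays cannot be left out. Log2 differences near 0 changed sign. For MIST1 over the GFP control the ranges were -0.0846 to 0.0267 for CDKN1A, -0.21 to 0.10 for CDKN1C, -0.0319 to 0.181 for CDKN2A, -0.695 to 0.0573 for CDKN2B, -0.27 to 0.20 for CCND1, -0.381 to 0.0293 for CCND2 and -0.0575 to 0.0465 for CCND3. For the GFP control over parental cells they were -0.0573 to 0.155 for CDKN2A, -0.22 to 0.28 for CCND1 and -0.13 to 0.28 for CCND2. For MIST1 over parental cells they were -0.26 to 0.24 for CCND1 and -0.26 to 0.0646 for CCND2. For the response they were -0.21 to 0.0191 for CDKN1C, -0.135 to 0.0704 for CDKN2A and -0.149 to 0.102 for CDKN2D.

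Other settings turned signs too. The higher floor gave CDKN1C 0.0602 for MIST1 over the GFP control, CCND2 -0.0834 for the GFP control over parental cells and CDKN1C 0.404 for the response. Quantile normalization gave CDKN1A 0.0104 for MIST1 over the GFP control and, for the response, CDKN1A 0.0615 and CDKN2D 0.0427. The mean of all probe sets gave CDKN1C -0.27 for the GFP control over parental cells, CDKN1C -0.32, CCND1 0.0217 and CCND2 0.0544 for MIST1 over parental cells, and CDKN1C 0.23 and CCND2 -0.11 for the response. Where no construction is named the cause was not tested. The median of all genes moved by 0.13 for the GFP control over parental cells in HGC-27. Values near the floor, as for CCND2 in AGS, have no order.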
